A study of Mus musculus with 4 samples.

Results

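Cytosolic ribosomal protein genes are the genes of the proteins that, with ribosomal RNA, make up the large and small subunits of the ribosome in the cytoplasm. They were chosen by name: every non-control probe whose accession led to a mouse symbol starting with Rpl or Rps and a digit, or to Rplp0, Rplp1, Rplp2 or Rpsa, with the Rps6k kinases (17 probes) left out. This gave 121 of 41174 probes, for 84 genes: 43 of the large subunit, 30 of the small subunit (Rpsa included), 3 of the stalk and 8 that are paralogues of these or share only the name. Two-colour Agilent arrays, on which a pair of RNA samples is labelled with different dyes and bound to the same spots, were used to compare microvascular smooth muscle cells derived from male C57BL6 Rap1a knockout mice. On each of 4 arrays, all on 1 slide, Cy5 marked total RNA of cells that had received an empty shuttle vector and Cy3 that of cells that had received a RapCA shuttle vector. Both kinds of cells lack Rap1a, a small GTPase, by their label, had been grown with 10% serum, were transduced overnight in serum-free medium when plated, and then had 48 h in 0.5% serum. No array had the dyes swapped, so the effect of the dye and that of the vector cannot be told apart. The arrays are labelled as biological replicates 1 to 4, and separate cultures or animals are not named, so the p-values measure the spread between these 4 arrays.

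Ribosomal proteins are made in near-equal amounts, and growing cells spend much of their protein synthesis on them. Most of their messages start with a terminal oligopyrimidine (TOP) tract, a C followed by a run of C and T bases, through which the mTOR pathway controls their translation; MYC raises the transcription of many genes of ribosome assembly. The stalk proteins recruit elongation factors to the ribosome, and some ribosomal proteins also have tasks outside it.

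Every ratio below is log2 of the channel labelled RapCA (Cy3) over the channel labelled vector (Cy5) after intensity-dependent (loess) normalization, so a value of -1 is a signal 2-fold lower in the RapCA channel. The error is the SD over 4 arrays, the adjusted p is that of limma with Benjamini-Hochberg adjustment over 23497 probes, and a probe or gene is called when it is under 0.05. Each gene is given by its brightest tested probe. Of the 84 genes, 82 had a tested probe (117 probes), that is a probe that stood well above background, in 1 channel or both, on each of the 4 arrays. Rpl39l, with 2 probes, and Rpl3l, the heart and muscle paralogue of Rpl3, with 1, did not meet this, nor did 1 further probe of Rps15a. The Rpl39l probes were not well above background on any array in either channel, and the Rpl3l probe was so on 1 array in Cy3 and 2 in Cy5. Rpl10l, Rpl32l, Rpl37rt, Rps23rg1 and Rps27rt were among the symbols that had no probe under the naming used here.

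The starts of the messages are shown first, since the TOP tract is what this family is known to share and the choice by name did not use it. Each line is 30 bases of mouse build GRCm38.p6 from RefSeq, 10 before and 20 from the annotated start, read 5′ to 3′ on the gene's own strand, with the longest run of at least 5 C or T bases in capitals. Rpl12 to Rpl38 are among the genes with the lowest ratios, and Rpl27a to Rps15 among those with the highest.
Rpl12, chr2:32961702-32961731, plus strand: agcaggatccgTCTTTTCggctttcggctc
Rpl41, chr10:128549149-128549178, minus strand: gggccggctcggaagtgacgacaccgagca
Rps12, chr10:23787190-23787219, minus strand: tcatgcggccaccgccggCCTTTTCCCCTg
Rplp2, chr7:141447641-141447670, plus strand: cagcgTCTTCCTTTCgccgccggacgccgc
Rps23, chr13:90923112-90923141, plus strand: cggctgggcggggCTTCCCgcaatgccttg
Rplp0, chr5:115559457-115559486, plus strand: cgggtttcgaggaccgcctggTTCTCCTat
Rpl38, chr11:114668570-114668599, plus strand: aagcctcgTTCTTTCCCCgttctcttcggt
Rpl27a, chr7:109519185-109519214, plus strand: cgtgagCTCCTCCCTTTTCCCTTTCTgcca
Rpl4, chr9:64173377-64173406, plus strand: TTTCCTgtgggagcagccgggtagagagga
Rps15a, chr7:118116128-118116157, minus strand: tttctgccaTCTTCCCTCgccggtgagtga
Rps15, chr10:80292421-80292450, plus strand: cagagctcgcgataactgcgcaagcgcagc
A run of C followed by at least 6 bases that are each C or T, searched in this window on the gene's strand only, was present in 29 of the 62 tested ribosomal protein genes found in the RefSeq promoter table (46.8%), against 15.6% of all 27025 genes in it. In the lines above it is present in Rps12, Rplp2, Rpl38, Rpl27a and Rps15a and not in the others, of which Rpl41 and Rps15 have no stretch in capitals at all. By call, 13 of 35 genes lower in the RapCA channel held such a run (37.1%), 12 of 21 that were not called (57.1%) and 4 of 6 that were higher (66.7%). A gene with several annotated starts counted once; by starts the shares were 39.7% of 73 in the ribosomal protein genes and 13.5% of 32851 in all. The run was thus found in each class of call, and a window without it says only that these letters are not there.

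Of the 82 ribosomal protein genes, 46 had a lower signal in the RapCA channel, 8 a higher one and 28 were not called. Over all 12388 genes tested in the same fit, 24.9% were lower and 28.9% higher, so the share of ribosomal protein genes that was lower (56.1%) was above the share of all genes and the share that was higher (9.76%) was below it. The median log2 ratio of the 82 genes was -0.37, against 0.02 for all genes. Sizes were modest: 11 genes were at least 2-fold lower, 35 were lower by less than that, and none was 2-fold higher. Of all 12388 genes, 926 were called at least 2-fold lower and 1135 at least 2-fold higher. Counted by probe, 53 of 117 were lower and 12 higher, against 23.2% and 26.4% of all probes tested. The large subunit had 23 lower and 4 higher of 43 genes (median -0.35) and the small subunit 16 lower and 3 higher of 30 (median -0.33), so neither subunit carried the counts alone. All 3 stalk genes were lower (median -1.20).

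**Figure D1:**
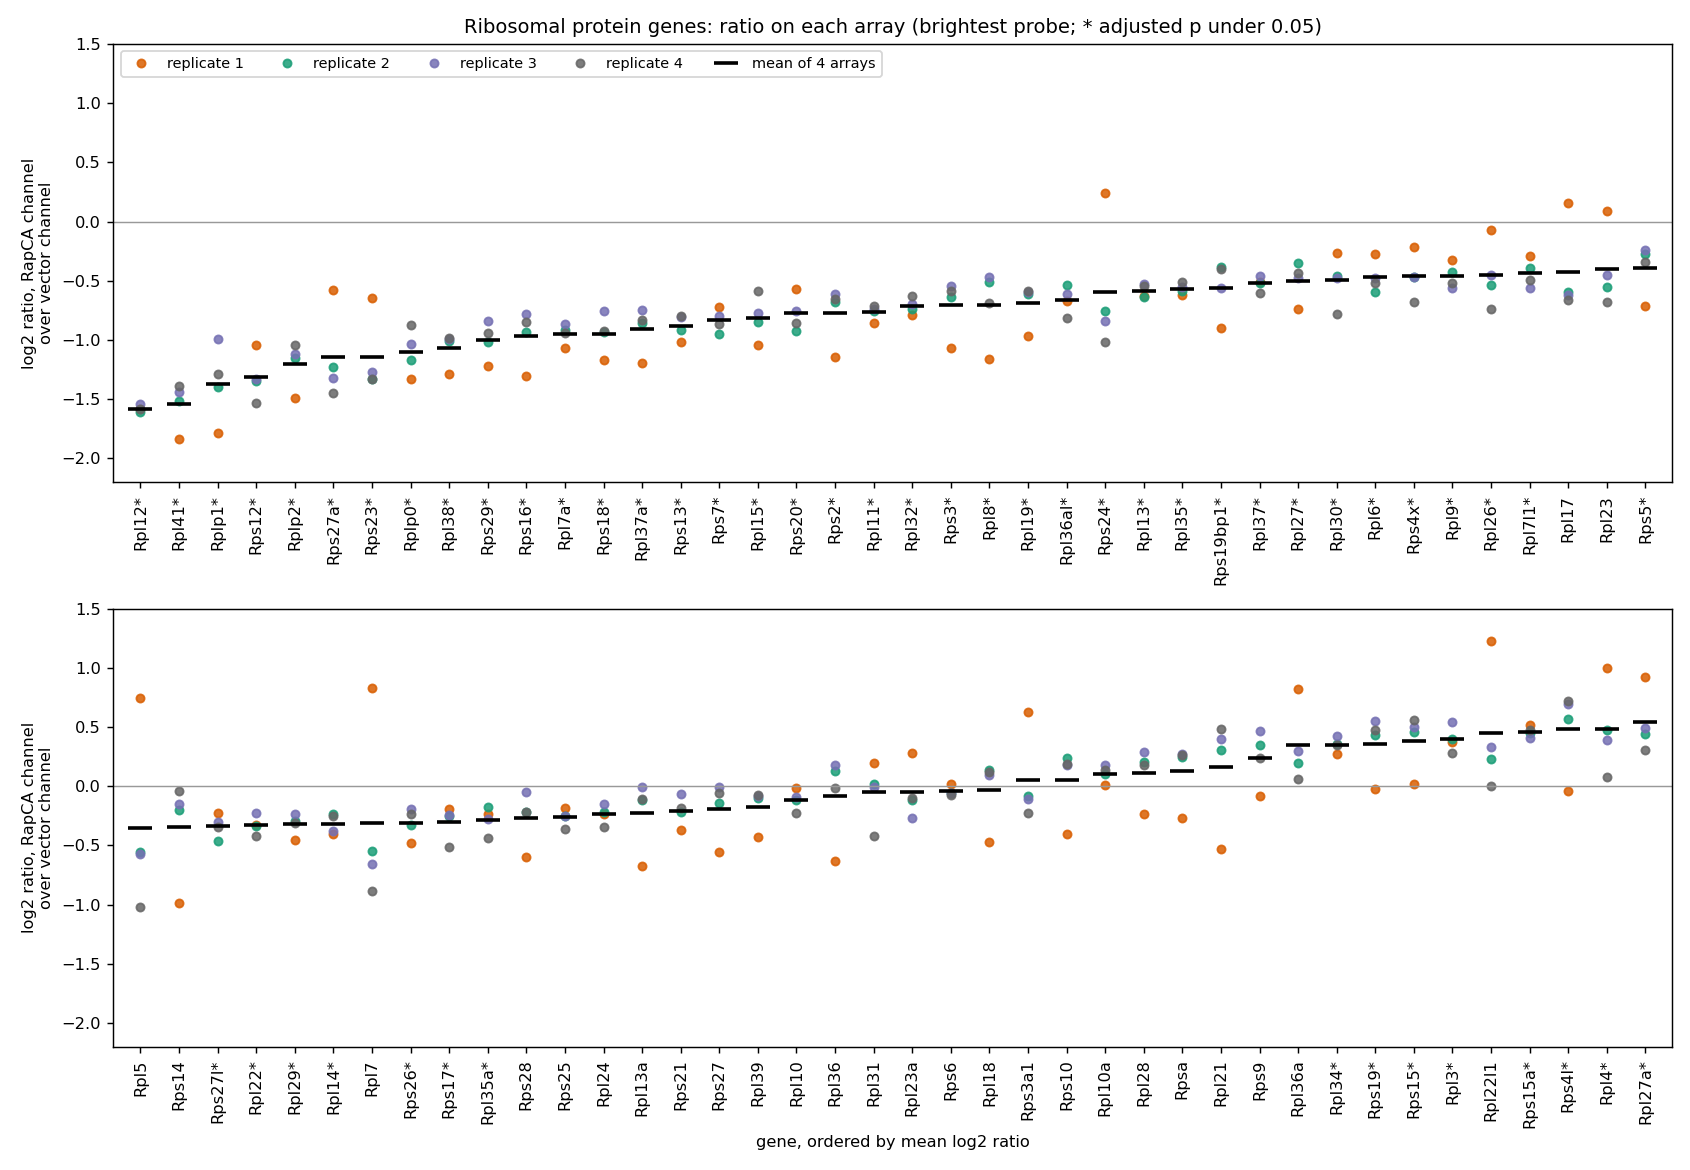
Log2 ratio of the RapCA over the vector channel (vertical axis) for 80 of the 82 tested ribosomal protein genes (horizontal axis, ordered by mean), with a point for each of the 4 arrays, a bar for their mean and an asterisk at an adjusted p under 0.05. The ratios run from -1.58 for Rpl12 to 0.54 for Rpl27a, and the points of replicate 1 often stand apart from those of the other arrays.

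The stalk is a complex of Rplp0, which anchors it on the large subunit, with the acidic proteins Rplp1 and Rplp2. The log2 ratio of Rplp1 was -1.79, -1.40, -0.995 and -1.29 on replicates 1 to 4 (mean -1.37 ± 0.33, a signal 2.58-fold lower, adjusted p = 0.00030 by limma). That of Rplp2 was -1.49, -1.15, -1.12 and -1.05 (mean -1.20 ± 0.20, 2.30-fold lower, adjusted p = 0.00021 by limma). Rplp0, often used as a reference gene in quantitative PCR, was -1.33, -1.17, -1.03 and -0.88 (mean -1.10 ± 0.19, 2.15-fold lower, adjusted p = 0.00028 by limma). Each stalk gene was below 0 on every array, with the lowest of each gene on replicate 1. The second probe of Rplp0 gave -1.14 ± 0.17, within the spread of the first.

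Among the other genes of the large subunit, Rpl12, a protein at the base of the stalk, had the lowest ratio of the family and nearly the same value on every array. It was -1.58, -1.61, -1.54 and -1.58 on replicates 1 to 4 (mean -1.58 ± 0.03, 2.99-fold lower, adjusted p = 3.934e-05 by limma). Rpl41, whose product is one of the smallest proteins of the cell, was -1.83, -1.51, -1.44 and -1.39 (mean -1.54 ± 0.20, 2.92-fold lower, adjusted p = 7.805e-05 by limma). Both genes were below -1 on every array. Rpl38, known from a mouse mutant with altered skeletal patterning, was -1.29, -1.01, -0.99 and -0.99 (mean -1.07 ± 0.15, adjusted p = 0.00024 by limma). In Rpl41 and Rpl38, replicate 1 was the lowest array.

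Of the small subunit, Rps12 was lowest, at -1.04, -1.35, -1.33 and -1.53 on replicates 1 to 4 (mean -1.31 ± 0.20, 2.48-fold lower, adjusted p = 0.00015 by limma). Rps27a, which is made as a fusion with ubiquitin, was -0.58, -1.23, -1.32 and -1.45 (mean -1.14 ± 0.39, 2.21-fold lower, adjusted p = 0.0010 by limma). Rps23, a protein of the decoding centre, was -0.64, -1.33, -1.27 and -1.33 (mean -1.14 ± 0.34, 2.21-fold lower, adjusted p = 0.00068 by limma). In these 3 genes replicate 1 was the array nearest to 0, the reverse of the stalk genes. Rps29 was the last gene past 2-fold (-1.004 ± 0.16), and Rps16 the first inside it (-0.97 ± 0.23).

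By their brightest probes, the 8 higher genes stood well under 2-fold. Those with the same sign on all 4 arrays were Rpl27a, Rpl4, Rps15a, Rpl3, Rps15 and Rpl34. Rpl27a was 0.92, 0.44, 0.49 and 0.31 on replicates 1 to 4 (mean 0.54 ± 0.27, adjusted p = 0.010 by limma). Rpl4 was 1.00, 0.48, 0.39 and 0.08 (mean 0.49 ± 0.38, adjusted p = 0.035 by limma). Rps15a, which gave close values on all arrays, was 0.52, 0.45, 0.40 and 0.48 (mean 0.46 ± 0.05, adjusted p = 0.0058 by limma). Rpl3, which helps to form the site of peptide bond formation, was 0.40 ± 0.11, Rps15 was 0.38 ± 0.25 with 0.02 on replicate 1, and Rpl34 was 0.35 ± 0.06. The dimmer probe of Rpl34 was also higher, at 0.94 ± 0.10, a signal 1.92-fold higher. The other two called genes, Rps19 (0.36 ± 0.26), mutated in some Diamond-Blackfan anaemia, and Rps4l (0.48 ± 0.36), were just below 0 on replicate 1, at -0.03 and -0.04, and above 0 on the others. With each array only centred on its median and no loess, limma called 0 of the 82 genes higher (also 0 at an unadjusted p under 0.05) and 67 lower. Over all genes, that setting called 20% lower and 12.4% higher. The higher genes with 1 sign on all arrays moved toward or past 0: Rpl27a was 0.10, Rpl4 -0.01, Rps15a -0.17, Rpl3 -0.26, Rps15 -0.30 and Rpl34 -0.42. The dimmer probe of Rpl34 was 0.28 in that setting.

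The ribosomal protein probes lie where the arrays are brightest, at a median mean log2 signal of 16.6 against 10.3 over all genes, and there the ratio of all probes depends on the signal. Of the 267 tested probes with a mean log2 signal of 16 or more, 78 belonged to ribosomal protein genes. With median centring these 78 had a median log2 ratio of -1.15 and loess left -0.41. Among the 189 other probes at that signal the median after loess was -0.30, with 43.9% lower and 13.8% higher, against 57.7% and 3.85% of the 78. Part of those 189 probes also measure the ribosome, since 5 belong to ribosome proteins that the naming rule leaves out, such as Fau and Rack1; the 130 probes of other named genes had a median of -0.22 with 41.5% lower, and the 54 unnamed probes -0.32 with 46.3% lower. At 17 or more, the medians after loess were -0.78 for 15 ribosomal protein probes and -0.58 for the other probes. Across the 82 genes, which share the arrays and dyes, Spearman's rho of the ratio with the signal was -0.633. The part of the signal-dependent bend in the lower ratios was not tested.

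**Figure D2:**
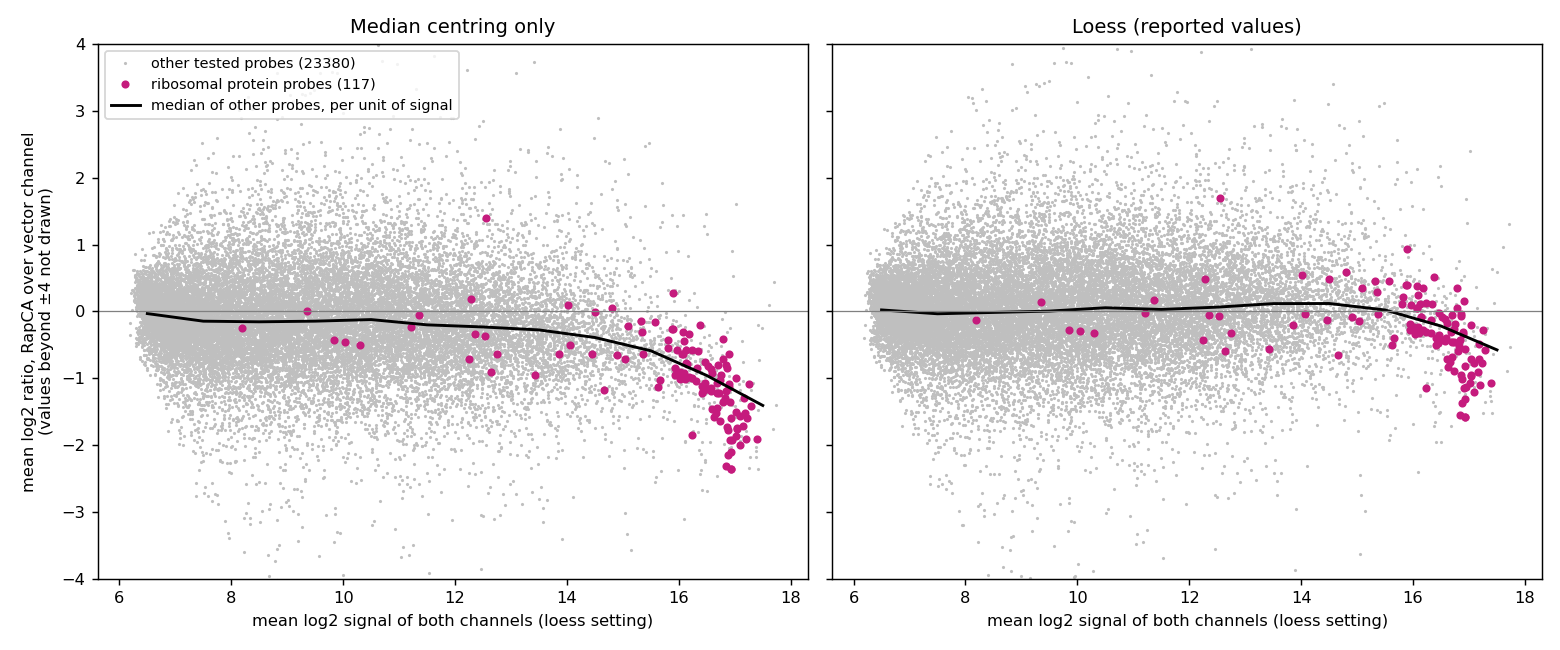
Mean log2 ratio of the RapCA over the vector channel (vertical axis) against the mean log2 signal of both channels (horizontal axis) for all tested probes, after median centring (left) and after loess (right), with the 117 ribosomal protein probes in colour and a line for the median of the other probes per unit of signal. The line bends down above a signal of about 15 after centring and still above 16 after loess, where 78 of the coloured points lie.

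Fewer genes than the 46 were called lower whichever processing setting was used. All settings share the dye orientation and none compares genes of like signal, so the part of the bend in these calls was not tested. Of the 82 genes, 25 were called lower in the reported fit and in each of the other 18 settings run on the gene values (normalization, background, filter, variance model, array weights, pairing, each array left out, mean over probes). That is 30.5% of them, against 11.7% of all 12388 genes lower in all 19 settings. All 82 were tested in every setting, but of all genes only 11426 were. The rest stay in the shares of all genes given here, which are lower for it. The 25 genes were 10 of the large subunit, 10 of the small subunit, all 3 of the stalk, and Rpl36al and Rps19bp1. All 10 genes with the lowest ratios were among them; over these settings Rpl12 ranged from -2.37 to -1.36, Rps12 from -2.10 to -1.07 and Rplp0 from -1.92 to -0.80. In sign alone, 53 genes, these 25 included, were below 0 in all 19 (64.6%, against 37.1% of all genes), and 2 were above 0 in all of them (2.44%, against 32.9%). No ribosomal protein gene was called higher in all 19, as 10.1% of all genes were. In the setting with median centring 0 of the 82 were higher. Rpl27a and Rps15a were the 2 genes called higher in all of the other 18 settings. With the ratio computed by the scanner software, 27 genes were lower and 7 higher (median -0.20), or 32.9% and 8.54% against 23.8% and 26.9% of all genes, the smallest count of lower genes among the settings.

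**Figure D3:**
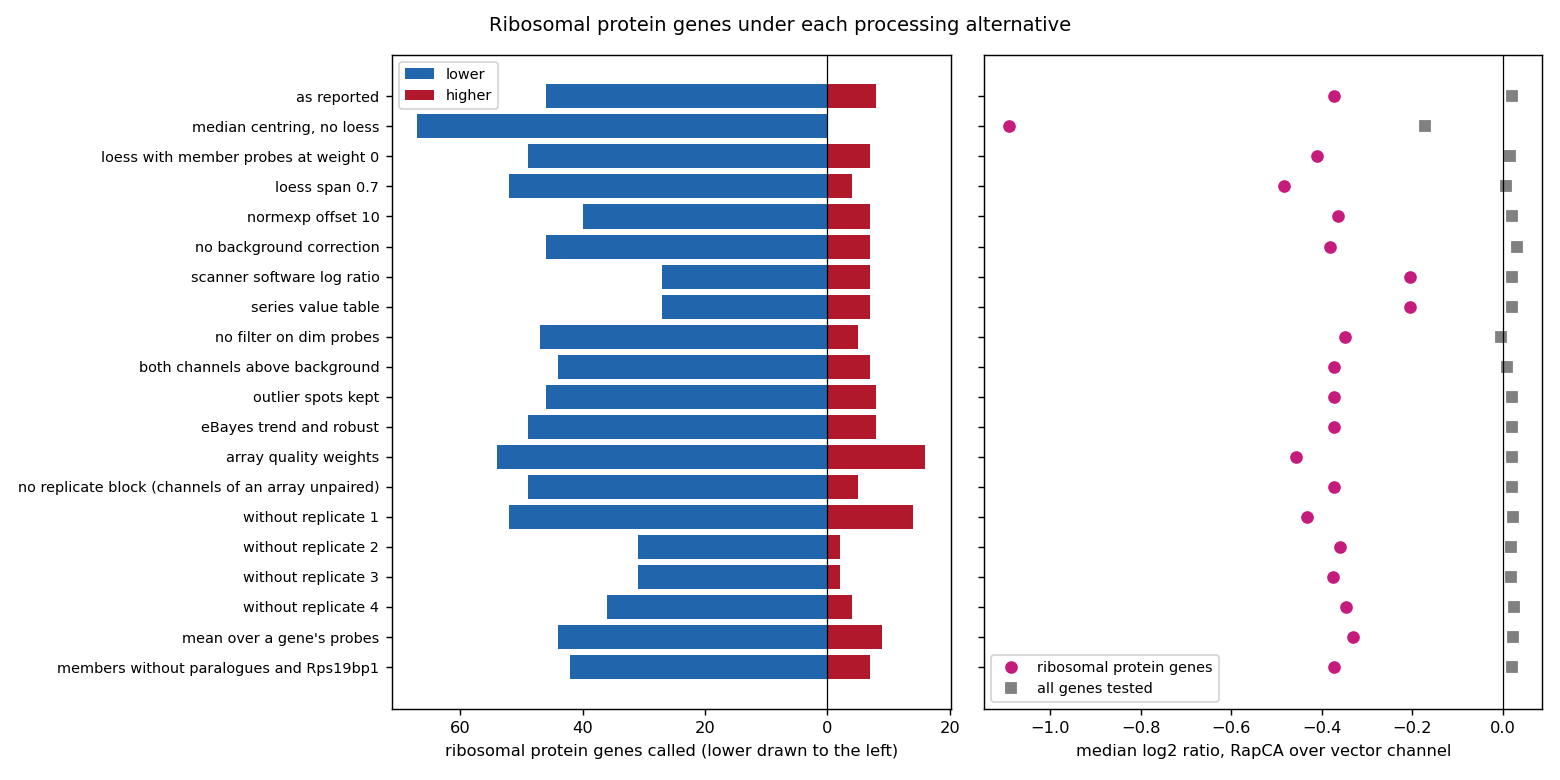
Left, number of ribosomal protein genes called lower (drawn to the left) and higher (to the right) in the RapCA channel under each processing setting; right, median log2 ratio of the ribosomal protein genes (circles) and of all genes tested (squares). The count of lower genes ran from 27 to 67 and that of higher genes from 0 to 16, while the median stayed between -1.09 and -0.20.

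The arrays differed in how its members spread. The median of the 82 genes was -0.44, -0.39, -0.45 and -0.47 on replicates 1 to 4, and 63, 62, 63 and 64 of them were below 0. Yet the order of the genes on replicate 1 was less like that of the others (Pearson's r across the 82 genes 0.56 to 0.71) than the others were to each other (0.96 to 0.98); over all probes these were 0.69 to 0.78 and 0.93 to 0.98. Replicate 1 was also the array with the fewest Cy5 spots well above background, 51.3% against 60.1% to 61.9%, and its part in the difference was not tested. All 4 arrays gave the same sign in 64 of the 82 genes (78%, against 62.8% of all genes), and in 18 genes replicate 1 had the sign opposite to the mean of the others. Rpl5, which with Rpl11 binds Mdm2 when ribosome assembly is disturbed, is one of these: 0.74 on replicate 1 and -0.56, -0.57 and -1.02 on the others (mean -0.35 ± 0.76, adjusted p = 0.30 by limma). Its partner Rpl11 was -0.86, -0.75, -0.74 and -0.71 (mean -0.76 ± 0.06, adjusted p = 0.00066 by limma). Rpl7 had the widest spread of the family, 0.83 on replicate 1 and -0.54, -0.66 and -0.88 on the others. Without replicate 1, 52 genes were lower and 14 higher; without replicate 2, 31 and 2; without replicate 3, 31 and 2; and without replicate 4, 36 and 4. The calls over all genes moved too, from 34% lower and 37.1% higher without replicate 1 to 17.5% and 21.4% without replicate 2, 17% and 21.6% without replicate 3, and 19.8% and 24% without replicate 4.

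Probes of the same gene are a check that does not compare genes. Several tested probes were present for 29 of the genes, and in 19 of these all probes had the same call. The same call includes genes that no probe called, among them Rpl17, whose probes had opposite signs (-0.43 ± 0.39 and 0.22 ± 0.27). In 6 genes every probe was lower, among them Rplp0, Rpl13 and Rps2, whose probes gave -0.77 ± 0.25 and -1.57 ± 0.25. The brightest probe had the lower ratio than the dimmest in 21 of the 29 genes and the higher in 8. Rps18, a common reference gene, was -0.95 ± 0.17 by its brightest probe and -0.07 ± 0.20 by the other, which was not called. Likewise Rpl7a was -0.95 ± 0.09 by one probe and -0.08 ± 0.09 and -0.13 ± 0.21 by the others. Rps3, which also takes part in DNA repair, was -0.71 ± 0.24 and 0.29 ± 0.30. Rpl19 was -0.69 ± 0.19 and -0.09 ± 0.25. Of the 25 genes lower in every setting, 6 had several tested probes, and in 3 of these, Rps18, Rpl7a and Rpl19, the other probes were not lower. Rpl37, Rpl29 and Rps28 also had probes with different calls, with one probe lower in each. Rpl7 had a higher probe too (0.58 ± 0.50), dimmer than the 2 that were not called. The one gene with opposite calls was Rpl22: its brightest probe was lower (-0.33 ± 0.08) and its dimmer probe was higher (1.69 ± 0.16). Which transcript or near-identical copy each probe binds was not examined, and ribosomal protein genes have many processed copies in the genome that could share signal.

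**Figure D4:**
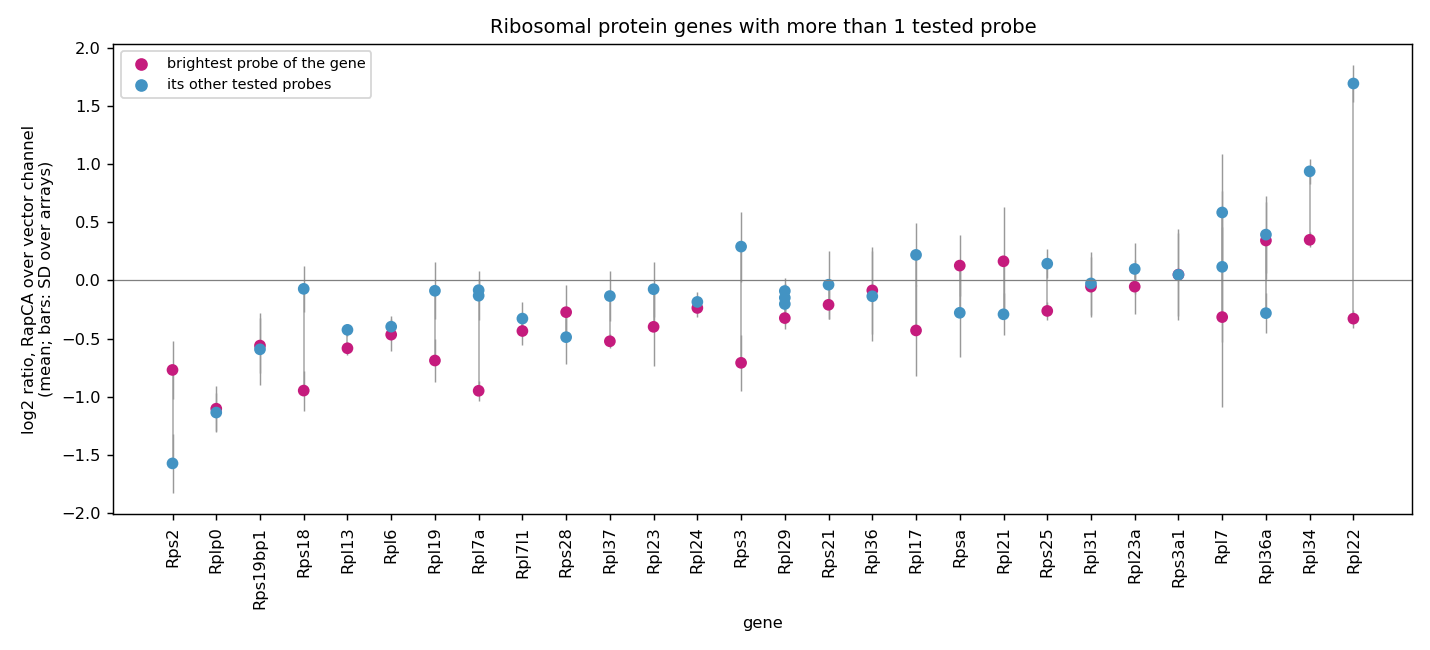
Log2 ratio of the RapCA over the vector channel (vertical axis, mean with SD over 4 arrays) of every tested probe of 28 of the 29 ribosomal protein genes with more than 1 (horizontal axis), the brightest probe of each gene in one colour and the rest in another. Probes of Rplp0 and Rpl13 lie close together, while those of Rps18, Rpl7a, Rps3 and Rpl22 lie apart.

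The paralogues, which can take the place of their parent in the ribosome or have other tasks, were 3 lower and 1 higher of the 5 tested (median -0.34). Over all genes, 24.9% were lower and 28.9% higher. Rpl36al was lower, at -0.67, -0.54, -0.61 and -0.82 on replicates 1 to 4 (mean -0.66 ± 0.12, adjusted p = 0.0016 by limma). Rpl36a was 0.34 ± 0.33 by its brightest probe and 0.39 ± 0.33 and -0.28 ± 0.17 by the others, none of them called. Rpl7l1, which takes part in assembly of the large subunit, was lower by both of its probes (-0.43 ± 0.12 and -0.33 ± 0.14). Rps27l, a p53 target, was -0.34 ± 0.10 and lower, and Rps27 was -0.19 ± 0.25 and not called. In these pairs the difference between paralogue and parent was not tested. Rpl22l1, whose expression Rpl22 is known to restrain, was 1.23 on replicate 1 and 0.23, 0.33 and 0.00 on the others (mean 0.45 ± 0.54, not called). Rps4x, the X-linked gene, was lower (-0.46 ± 0.19), and Rps4l, which RefSeq lists as a transcribed pseudogene, was higher as given above. Rps19bp1, a binding partner of Rps19 and not a ribosomal protein, fits the naming rule and was lower by both of its probes (-0.56 ± 0.24 and -0.59 ± 0.31). Rpsa, a small subunit protein also known as a laminin receptor, was -0.27 on replicate 1 and 0.25, 0.27 and 0.26 on the others and was not called.

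Genes that work with the ribosome were read from the same fit. Fau, a ribosome protein made as a ubiquitin-like fusion, and Rack1, a signalling scaffold on the small subunit, fall outside the naming rule and were lower, at -1.52 ± 0.20 and -1.21 ± 0.25. Of 48 tested genes of ribosome biogenesis, which make and modify ribosomal RNA and assemble the subunits, 33 were lower and 0 higher by limma (1 was higher at an unadjusted p under 0.05), 68.8% against 24.9% of all genes lower, with a median of -0.64. Their median log2 signal was 11.9, against 16.6 for the ribosomal protein genes. With median centring 21 were lower and none higher, while 20% of all genes were lower and 12.4% higher. The part of the signal in these ratios was not tested. In that list Rrp1b was -1.02 ± 0.14 and Nop2, an RNA methyltransferase, -0.90 ± 0.10. Nhp2, a protein of the complexes that carry out pseudouridylation, was -1.13 ± 0.27, and Tcof1, mutated in Treacher Collins syndrome, -0.80 ± 0.04. The adjusted p of these genes ran from 0.00028 to 0.00050 by limma. Of 78 mitochondrial ribosomal protein genes, which belong to a separate ribosome, 27 were lower and 5 higher, with a median of -0.18. These were 34.6% and 6.41%, against 24.9% and 28.9% of all genes. Mrpl18 was -0.97 ± 0.30 and Mrps6 0.81 ± 0.19, Mrps25 was -0.67 ± 0.13 and Mrpl3 -0.60 ± 0.04.

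The 20 translation factors and other genes known for TOP messages gave few calls, 2 lower and 1 higher (10% and 5%), with a median of -0.06 at a median log2 signal of 15.4. Eef2, the elongation factor that moves the ribosome along the message, was higher (0.83 ± 0.16), Eef1d was lower (-0.45 ± 0.11), and Pabpc1, the poly(A)-binding protein, was lower with 0.22 on replicate 1 and -0.90, -0.97 and -0.76 on the others. Hnrnpa1 was -0.49 ± 0.45 and not called. On replicate 1 the median of these 20 genes was 0.35 and on the others -0.11, -0.09 and -0.20. Of 21 regulators of the mTOR and MYC pathways, 4 were lower and 7 higher (19% and 33.3%, near the 24.9% and 28.9% of all genes), and with median centring 3 and 2. Mxd1 and Mxi1, which compete with MYC for its partner Max, were higher (1.42 ± 0.17 and 0.70 ± 0.09), as was the initiation factor Eif4g1 (1.09 ± 0.27), while Larp4, which binds poly(A) tails, was lower (-1.19 ± 0.49). Mxi1 and Eif4g1 were not called with median centring (0.52 and 0.74), nor was Eef2 (0.21). Of 12 genes that survey ribosomes or respond to their faults, 4 were lower (33.3%, near the 24.9% of all genes) and 1 higher (8.33%, against 28.9%). These included Nemf, which binds stalled large subunits (-0.86 ± 0.27), Rnf10, a ubiquitin ligase of the small subunit (-0.59 ± 0.21), Trp53 (-0.65 ± 0.31), and Usp10, a deubiquitinase (-0.34 ± 0.17), all of them lower.

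**Figure D5:**
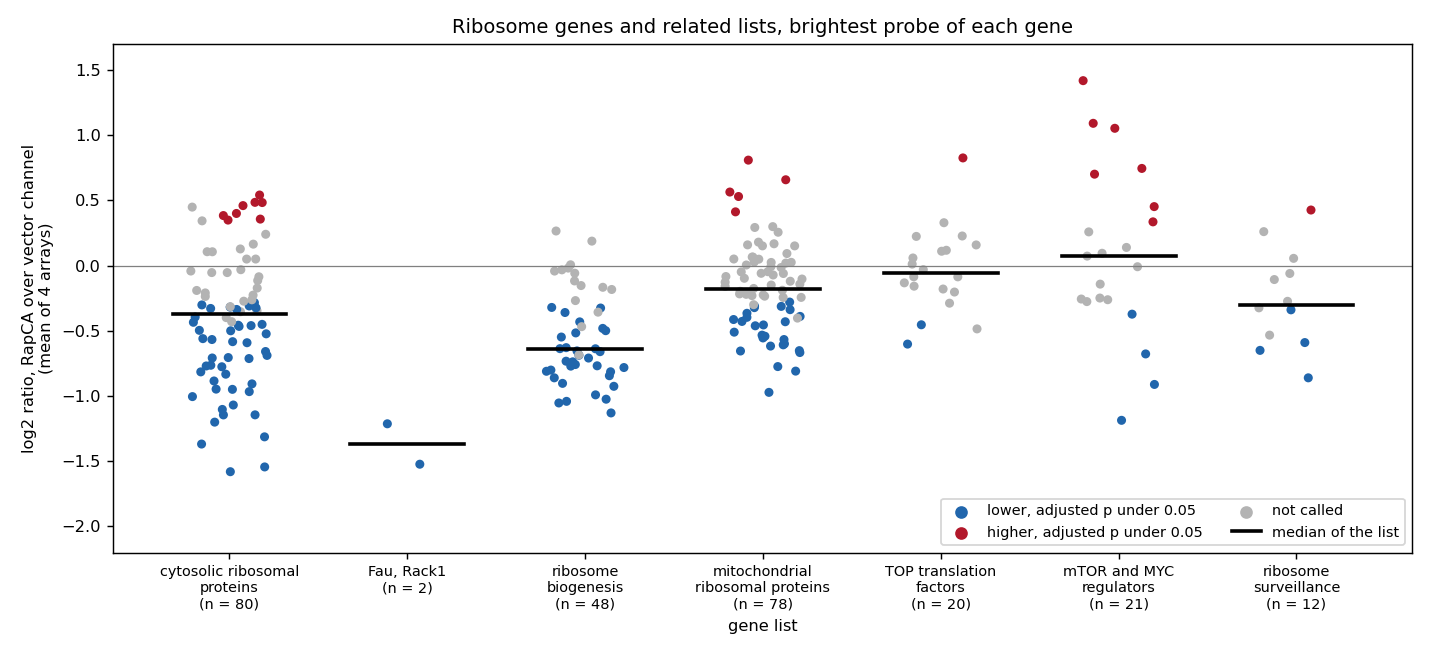
Log2 ratio of the RapCA over the vector channel (vertical axis, mean of 4 arrays) for the genes of 7 lists (horizontal axis; 80 of the 82 ribosomal protein genes drawn), coloured by call, with a bar for the median of the list. The medians lie at -0.37 for the 82 ribosomal protein genes, -0.64 for ribosome biogenesis, -0.18 for mitochondrial ribosomal proteins and -0.06 for the TOP translation factors.

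Values that describe the samples as a whole stand beside these results. Rap1a was -0.46, -1.02, -1.31 and -1.47 on replicates 1 to 4 (mean -1.07 ± 0.44, adjusted p = 0.0020 by limma), lower in the channel labelled RapCA. Whether its probe lies in the deleted part of the gene was not examined, nor whether the channels were exchanged. The channels are named by their labels throughout, and an exchange would reverse every direction given here. Of 7 smooth muscle markers 6 were tested, and Des did not meet the filter. In the RapCA channel 3 were higher (Tagln at 2.13 ± 0.28, Lmod1 and Acta2), that is 50% against 28.9% of all genes. Of 7 endothelial markers 3 were tested, with Vwf and Kdr lower and Tek higher (from -2.03 to 1.16) at a median log2 signal of 7.50, and Pecam1 and Cdh5 were not among them. Of 7 macrophage markers 3 were tested, at a median log2 signal of 6.56, and Ptprc and Adgre1 were not among them. Lyz2 was higher (0.52 ± 0.09), with a signal well above background in Cy3 only, and Cd14 and Csf1r were not called. The part of these cells in the ratios of the ribosomal protein genes was not tested. In RNA of whole cultures, fewer cells of a kind and less of a message per cell cannot be told apart, and a ratio here is a share of the RNA labelled, not an amount per cell.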

How the data were processed

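Per the labels, 4 two-colour Agilent arrays on 1 slide were hybridised, and per the file headers Feature Extraction 10.7.3.1 read them (per the submitters' processing notes, 10.9). Intensity values, as deposited in the scanner output, are median spot and background signals with no normalization. Mean signals are not among the columns used here. Per the file headers, the deposited log10 values of the scanner output and of the series table are Feature Extraction's processed Cy5 over Cy3 ratios; both sources differed by at most 5e-05, column medians were 0, and they served as alternatives.

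With limma 3.58.1 in R 4.3.3, background was corrected by normexp (offset 50) and ratios by loess (span 0.3; control and outlier spots at weight 0). Outlier spots (94 to 137 per array) were left out; none was saturated. A probe was kept where, in 1 channel or both, at least 50% of its spots stood well above background on each of the 4 arrays (23497 of 41174), and tested by lmFit and eBayes against 0 over at least 3 arrays. Checks on simulated data preceded the fit. The number of arrays limits the precision. Symbols came from RefSeq GRCm38.p6 by accession (64.8% of probes, 12388 tested genes); the files' design rests on another build, so no probe was placed on the genome. Promoter windows matched 62 of 82 genes by symbol. Each ratio is within an array, which pairs both RNAs.

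Genes named are the 10 lowest and up to 10 highest of those called with 1 sign on all arrays, stalk genes, Rpsa, paralogues with parents, genes whose probes differ in call, Rap1a, and the 4 smallest p-values of each related list; Rpl5, Rpl11, Rpl13, Rps16, Rps19, Rps29 and the cell markers were added after their values were seen. Single values of a few genes are not reported here, though counts and medians include them. The members and lists were chosen with earlier results of these data known.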

Additional observations from a re-analysis of the deposited data

Results flagged for a closer look

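In 58 sets of 4 values, those of the genes named by rule and the family median, each array was compared with the other 3, and in 6 genes one array stood apart from the rest by more than Dixon's 95% limit for 4 values (gap over range). Chance gives about 1 such gene in 20. In 5 of the 6, replicate 1 was the array apart. Rps23 was -0.64 on replicate 1, nearer to 0 than on the others (Dixon's ratio 0.917). Rpl38 was -1.29 on replicate 1 (0.917) and Rpl19 was -0.97 (0.94), both lower than on the other arrays. Rpl39 was -0.43 on replicate 1 (0.941) against values from -0.10 to -0.08 on the others. Rpsa was -0.27 on replicate 1 (0.958) and above 0 on the other 3. Mrpl3, of the mitochondrial ribosome, was -0.66 on replicate 3 (0.839).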

How the results depend on the processing

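The 4 arrays, 1 dye orientation and the bright end of the signal range limit these results. With median centring in place of loess, the median of all genes moved from 0.02 to -0.17, and calls over all genes from 24.9% lower and 28.9% higher to 20% and 12.4%. There, 86 ribosomal protein probes were lower and 1 higher, 0 genes were higher, the median was -1.09, and 2 related genes were higher; Rpl4 (-0.012), Rps15a (-0.17), Rpl3 (-0.26), Rps15 (-0.30), Rpl34 (-0.42), Rpsa (-0.57), Rpl22l1 (-0.14) and Rpl36a (-0.34) changed sign. Loess with ribosomal protein probes at weight 0 gave a median of -0.41; a span of 0.7 gave -0.48 and 4 higher genes. The scanner ratio and the series table each gave 30 lower probes, 27 lower genes and a median of -0.20, with Rpl39 at 0.0713 and Rps27 at 0.033 and 0.0331. No filter left 5 higher genes. Array weights gave 23 higher probes, 16 higher genes, a median of -0.46 and 31 higher related genes. With these weights 37.2% of all genes were lower and 40.2% higher, against 65.9% and 19.5% of the ribosomal protein genes. The mean over probes gave a median of -0.33, with Rpsa at -0.0749, Rpl7 at 0.13 and Rpl22 at 0.68, the last called higher. Without the replicate block, that is with the channels of an array unpaired, 5 genes were higher. Leaving out 1 array gave 34 to 62 lower and 5 to 20 higher probes, 31 to 52 lower and 2 to 14 higher genes, medians from -0.43 to -0.35, and 43 to 93 lower and 9 to 27 higher related genes. The remaining 98 of 133 values of the counts and median stayed within 1.5 times or 1 SD. The cause of these changes was not tested.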
